A study of Medicago truncatula with 24 samples.

Results

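In Medicago truncatula, a legume used as a model plant, small RNA sequencing listed 427 sequences, of which 69 were 22 nt long. Leaving out 7 that lay within 3 mismatches of a conserved miRNA family (miR156 to miR172, miR319, miR390 to miR399, miR408 or miR2111) or of its opposite arm left 62 sequences of 22 nt, and these are described here. Of the 62, 43 had counts in at least 1 library and 19 had none; 15 had 300 counts or more over all libraries and 28 had fewer. The rule used sequence and length alone, and no measured value, though it was chosen with earlier results of these data known.

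The libraries came from shoots and roots of the wild type A17 and of cra2, a mutant in the receptor kinase CRA2, which perceives CEP peptides made by nitrogen-starved roots. Neither the allele nor the number of plants in a library is stated in the labels. The files hold no transcripts, so neither CRA2 nor markers of the organs could be checked. Root systems were split at 3 weeks of age, after preculture with 0.5 mM KNO3. For the 4 days before harvest at 4 weeks, the local root compartment received 10 mM NH4NO3 (satiety) or 0.05 mM KNO3 (deficit), while the systemic compartment of every plant received no mineral nitrogen. That the roots sampled were the systemic ones (distant roots) rests on the series design, since single labels name only the organ and the local supply. Genotype, organ and local supply gave 8 groups of 3 libraries, 24 in all. A root library held from 768323 to 1661422 counts and a shoot library from 1494211 to 3919811. A count of 3 therefore stood for 0.765 to 3.9 CPM (counts per 1000000 of a library). A single miR159 sequence took 72.2 ± 2.83% of a root library and 81.8 ± 3.67% of a shoot library (SD, n = 12 each). The labels do not say whether replicates were separate plants, and a p-value here speaks of the spread among the libraries, possibly a technical one.

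Most plant miRNAs are 21 nt long and cut or silence their target directly. Those of 22 nt have a further property. Their cut target is copied into double-stranded RNA and diced into secondary, phased small interfering RNAs (phasiRNAs), with RDR6, SGS3 and DCL4 among the proteins involved. In legumes the best known 22-nt triggers act on transcripts of NB-LRR immune receptors. miR2118, miR1507 and miR5213 are among these triggers. The files hold no targets, so classes of receptor cannot be compared here.

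Short 5′ sequence patterns named 5 of the 62 sequences. They are shown because they carried most of the counts and include the NB-LRR triggers on which the root results turn. Capitals mark the seed, bases 2 to 8 from the 5′ end, and T stands for U as in the deposited files.
miR5213: tACGTGTGtcttcacctctgaa
miR2118: tTACCGATtccacccattccta
miR1507: cCTCGTTCcatacatcatctag
miR2118-like: tTACCTATtccaccaattccat
miR1509-like: tTAATCTAggaaattacactcg
miR2118-like differed from miR2118 at 2 of the first 20 positions and at 4 of 22, and their seeds differ. miR1509-like shared its seed with the 21-nt miR1509 sequence, from which it differed at 2 of the first 18 positions. The names rest on short patterns written from textbook knowledge, since the files hold no miRNA names. No sequence matched the short patterns used for miR482, miR1515 or miR2109. That does not show these families to be absent, and a named sequence may be related to one of them. The sequence matched to miR1510, another NB-LRR regulator of legumes, was 21 nt long and so lies outside the set.

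The other abundant sequences carried no family name and are called sRNA and their rank by summed counts.
sRNA6: tGATAGAGctagaccatcggag
sRNA7: tGGATTTCgtatttctttggta
sRNA8: cTCGGCATtcatgtttttcctt
sRNA9: aGAGTTGTatggaacgaaagat
sRNA10: aGGATTGGtgtaataggtaaaa
sRNA11: tTCGGGTTgataatattttctt
sRNA14: tCGCAGGAgtgatgggaccggc
sRNA15: cAACAGGActcaagcatttcgc
sRNA17: tATTGCACtcatcttccatggc
sRNA18: tGTGCATCttgaacaatggtat
sRNA22: tTGACCGTtcatatgaaccctg
Some of these look like opposite arms of a hairpin when both strands are paired with overhangs of 2 nt at the 3′ ends. sRNA9 paired in this way with miR1507, and sRNA10 with miR2118-like and, with more mismatches, with miR2118. sRNA15 paired with a 21-nt sequence, and its first 21 bases are themselves listed as another 21-nt sequence with 5469 counts against 916 for sRNA15, so the sequences overlap.

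The 62 sequences held 1608928 of 52312029 counts. Their share was 4.87 ± 0.549% of a root library and 2.44 ± 0.539% of a shoot library (SD, n = 12 each), and the lowest root library (4.08%) lay above the highest shoot library (3.37%). These shares moved with miR159. With the miR159 sequence taken out of the total they were 17.6 ± 1.31% and 13.5 ± 2.03%, and the organs overlapped (15.3 to 19.5% in roots, 11 to 18.2% in shoots). The 5 named sequences held 97.1 ± 0.300% of the set's counts in roots and 97.6 ± 0.343% in shoots. miR5213 was first in roots with 44.4 ± 13.5% of the set's counts, followed by miR1507 with 26.5 ± 7.32% and miR2118 with 15.2 ± 4.91%. That order was not the same in every root group. In cra2 roots under satiety miR1507 (15040, 19240 and 19810 CPM) stood above miR5213 (20310, 16260 and 18830) in 2 of 3 libraries. Over the 12 shoot libraries together miR2118 (34.8 ± 6.48%) and miR5213 (34.1 ± 10.1%) did not differ beyond their spread. There miR1507 followed with 21 ± 7.78%. The shoot groups differed in this order too. In A17 shoots the mean of miR5213 lay above that of miR2118 under satiety and below it under deficit, with levels given below. miR2118-like (7.22 ± 2.25% in roots, 3.31 ± 1.01% in shoots) and miR1509-like (3.82 ± 1.19% and 4.41 ± 0.956%) were the least abundant of the 5.

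A 5′ T, the base preferred by AGO1, opened 26 of the 43 sequences with counts (60.5%) and 75.8% of the set's counts, while miR1507 began with C. Among the listed 21-nt sequences outside conserved families the share was 55.8% of 147, and among 24-nt ones 23.2% of 56, where A led with 33.9%. By counts, a 5′ T opened 80.8% for those 21-nt sequences, 12.9% for the 24-nt ones and 97% for all listed. Shared seeds were rare. Within the set the seed of sRNA14 recurred in 1 sequence without counts, and that of sRNA12 in 1 with a single count.

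In distant roots of A17, miR2118, miR2118-like and miR1507, matched to NB-LRR triggers, were lower under local nitrogen deficit than under satiety. miR5213, also matched to an NB-LRR trigger, was higher. CPM within an organ are scaled by TMM factors of that organ's 12 libraries, and a sequence was called at an adjusted p under 0.05 in edgeR's quasi-likelihood test, adjusted over all sequences of that fit. Of the 17 sequences of the set abundant enough to test in roots 4 were called, 1 higher and 3 lower, beside 14.9% of all 168 tested called higher and 16.1% called lower. Their median log2 change was -0.22, against -0.002 for all tested.

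miR5213 stood at 18520, 16830 and 14290 CPM in the 3 satiety libraries of A17 roots and at 31820, 28400 and 22610 in the deficit libraries. Every deficit library lay above every satiety library, and the log2 change was 0.74 ± 0.19 (SE; edgeR adjusted p = 0.009). miR2118 stood at 7324, 7966 and 7661 CPM under satiety and at 4464, 3685 and 5137 under deficit. The groups did not overlap, and the log2 change was -0.79 ± 0.18 (edgeR adjusted p = 0.00653). miR2118-like moved from 3457, 3605 and 3765 CPM to 1810, 1988 and 2815, again without overlap (log2 -0.71 ± 0.18, edgeR adjusted p = 0.0086). For miR1507 the satiety libraries held 14800, 12960 and 16910 CPM and the deficit libraries 5288, 8411 and 12760. Its deficit libraries were spread the widest, the highest of them just under the lowest satiety library (log2 -0.76 ± 0.24, edgeR adjusted p = 0.0193). miR1509-like overlapped between the groups at 1474 ± 185 against 1177 ± 262 CPM (SD, n = 3) and was not called (log2 -0.32 ± 0.20, edgeR adjusted p = 0.227).

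**Figure D1:**
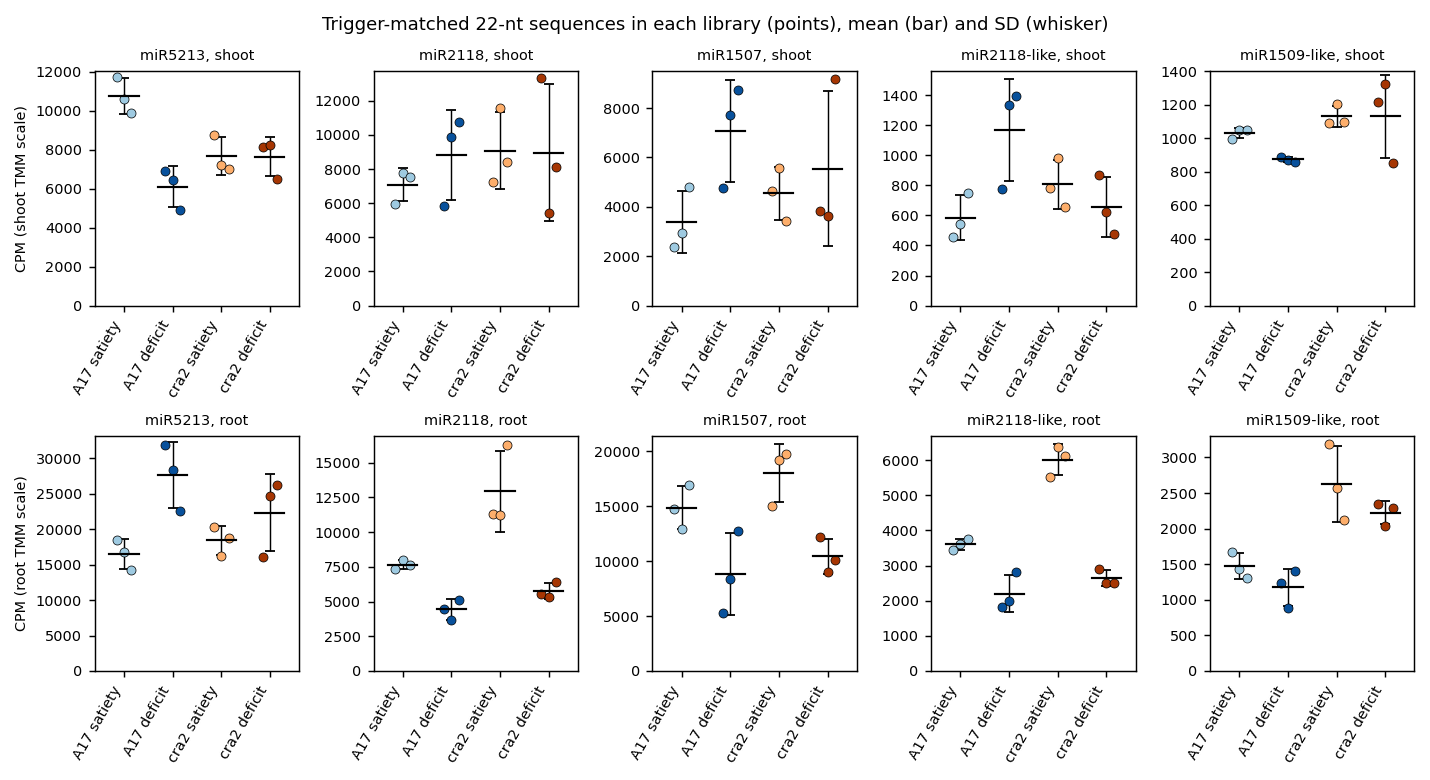
CPM of the 5 trigger-matched sequences (columns) in shoots (upper row) and roots (lower row), on the TMM scale of each organ. Points are the 3 libraries of a group, bars the mean and whiskers the SD; in roots miR2118, miR1507 and miR2118-like lie lower under deficit in both genotypes, without overlap.

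The scaling and single libraries bore on these calls. With upper-quartile scaling miR2118, miR2118-like and miR1507 were no longer called, nor were the latter pair with library totals (edgeR adjusted p up to 0.0732, 0.124 and 0.171 over all settings). miR1507 passed in only 2 of 6 fits with a library left out (edgeR adjusted p up to 0.18; lost without either of deficit replicates 1 and 2 or of satiety replicates 2 and 3). miR2118-like passed in 4 of 6 (up to 0.0832; lost without deficit replicate 1 or satiety replicate 3), miR5213 in 5 of 6 (up to 0.0567; lost without satiety replicate 3) and miR2118 in all 6.

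In cra2 roots miR2118, miR2118-like and miR1507 fell as well, and the unnamed sRNA8, sRNA15, sRNA14 and sRNA6 with them, while sRNA11 rose. Of the 17 tested 8 were called, 1 higher and 7 lower (5.88% and 41.2% of the set), beside 13.7% of all tested called higher and 14.9% called lower. The median log2 change was -0.24 for the set and -0.013 for all tested. These libraries are not those of the A17 comparison, so both comparisons have controls of their own.

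miR2118 stood at 11290, 11230 and 16290 CPM in cra2 roots under satiety and at 5528, 5318 and 6421 under deficit. The log2 change was -1.17 ± 0.18 (edgeR adjusted p = 0.000131), with no overlap. miR2118-like went from 5527, 6385 and 6126 CPM to 2909, 2516 and 2514, a log2 change of -1.18 ± 0.18 (edgeR adjusted p = 0.000131). Both were called under each of 9 other settings and without any single library. miR1507 fell from 15040, 19240 and 19810 CPM to 12170, 9046 and 10120, also without overlap (log2 -0.79 ± 0.24, edgeR adjusted p = 0.0184). It passed in 2 of 6 fits with a library left out (edgeR adjusted p up to 0.0768; lost without deficit replicate 2 or 3 or satiety replicate 2 or 3), and it was also lost with library totals and with the most abundant sequence left out (up to 0.246). miR5213 held 20310, 16260 and 18830 CPM under satiety and 16110, 24690 and 26170 under deficit. The libraries overlapped and it was not called (log2 0.27 ± 0.19, edgeR adjusted p = 0.317). miR1509-like was at 2627 ± 533 and 2225 ± 165 CPM (log2 -0.24 ± 0.20, or 0.06 with library totals, edgeR adjusted p = 0.403).

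Among the unnamed sequences of cra2 roots, sRNA8 fell from 110, 119 and 117 CPM to 61.8, 53.8 and 55.5. The groups lay well apart (log2 -1.02 ± 0.26, edgeR adjusted p = 0.0074), though the call was lost with library totals (0.0836) and without deficit replicate 3 (0.0506). sRNA11, a rare sequence in roots, rose from 10.5, 6.15 and 9.4 CPM to 22.0, 29.3 and 19.0 without overlap (log2 1.42 ± 0.39, edgeR adjusted p = 0.0106). Its counts were 6 to 13 and 21 to 36 in those libraries. It passed the filter's minimum of 10 through the deficit libraries, where it was high. The call was lost without deficit replicate 2 (edgeR adjusted p = 0.0662). sRNA15 fell from 39.1 ± 5.87 to 18 ± 7.4 CPM (log2 -1.09 ± 0.34, edgeR adjusted p = 0.0195). sRNA14 fell from 31.6 ± 18.8 to 12.7 ± 5.63 CPM with overlapping libraries (log2 -1.24 ± 0.44, edgeR adjusted p = 0.0417), and sRNA6 from 325 ± 40.9 to 225 ± 18.9 CPM (log2 -0.53 ± 0.20, edgeR adjusted p = 0.0493). These last 3 calls were the least stable. sRNA15 lost its call without deficit replicate 1 or 3 or satiety replicate 2 or 3 (edgeR adjusted p up to 0.115). sRNA14 lost it without deficit replicate 1 or 2 or satiety replicate 2 or 3 (up to 0.339), and sRNA6 without any of the 6 libraries (up to 0.283). Of 9 other settings, DESeq2 among them, sRNA15 passed in 4 with adjusted p reaching 0.115, sRNA14 in 5 (reaching 0.133) and sRNA6 in 1 (reaching 0.528).

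The test of the difference between the genotypes' root responses called nothing, with 0% of all tested called higher and 0% called lower. Of the 17 sequences 2 had an unadjusted p under 0.05 in edgeR, and DESeq2 called 0, beside 0% of all. The share of all tested at such an unadjusted p was not taken, here or below. Counts at an unadjusted p therefore do not set these sequences apart from the rest. The smallest p values were those of sRNA14 (log2 difference of responses, cra2 minus A17, -1.38 ± 0.59), sRNA6 (-0.59 ± 0.28) and miR2118-like (-0.47 ± 0.25), at edgeR adjusted p of 0.388, 0.388 and 0.477. For miR2118 the difference was -0.38 ± 0.26 (edgeR adjusted p = 0.541), so its responses in the genotypes were not separated.

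In A17 shoots no sequence of the set passed the test. The means of miR1507 and miR2118-like stood higher under deficit and that of miR5213 lower, the reverse of A17 roots. Of the 21 tested in shoots 0 were called higher and 0 lower, beside 0% and 0% of all 189 tested. Of the 21 sequences 8 had an unadjusted p under 0.05, a count with no share of all tested to set beside it. DESeq2 called 6, beside 16% of all tested. The median log2 change was 0.32 in the set and -0.19 over all tested. The count differed with the libraries fitted. In the cra2 shoot deficit group, the median SD between replicates on the log2 scale was 0.603, against 0.28 to 0.291 in the other shoot groups, and the groups of a fit share an estimate of spread. Fitted on the A17 groups alone 10 of 18 tested were called, beside 40% of all. Without the cra2 shoot deficit libraries, a setting chosen after the data had been seen, 8 of 18 were called, beside 35.9% of all.

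miR5213 stood at 11710, 10610 and 9897 CPM in A17 shoots under satiety and at 6899, 6458 and 4898 under deficit. All deficit libraries lay below all satiety libraries (log2 -0.82 ± 0.22, edgeR adjusted p = 0.0538). miR2118-like stood at 457, 544 and 750 CPM under satiety and 776, 1332 and 1395 under deficit, with the closest libraries at 750 and 776 (log2 1.0 ± 0.30, edgeR adjusted p = 0.0576). sRNA8 stood at 34.9, 42.6 and 47.8 CPM under satiety and 58.2, 115 and 101 under deficit (log2 1.13 ± 0.30, edgeR adjusted p = 0.0538). miR1507 stood at 2388, 2957 and 4801 CPM under satiety and 4782, 7711 and 8728 under deficit, overlapping at a single library (log2 1.06 ± 0.39, edgeR adjusted p = 0.083). Over the other settings, edgeR or DESeq2, the smallest adjusted p of these 4 was 0.00142, 0.00159, 0.00229 and 0.00159. The largest was 0.149, 0.133, 0.114 and 0.114. With a library left out they passed in 0, 1, 1 and 0 of 6 edgeR fits (adjusted p up to 0.202, 0.204, 0.202 and 0.271). miR2118 overlapped at 7089 ± 987 and 8826 ± 2621 CPM (log2 0.32 ± 0.33, edgeR adjusted p = 0.512), and miR1509-like was at 1033 ± 30.9 and 874 ± 13.8 CPM (log2 -0.24 ± 0.21, edgeR adjusted p = 0.415).

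**Figure D2:**
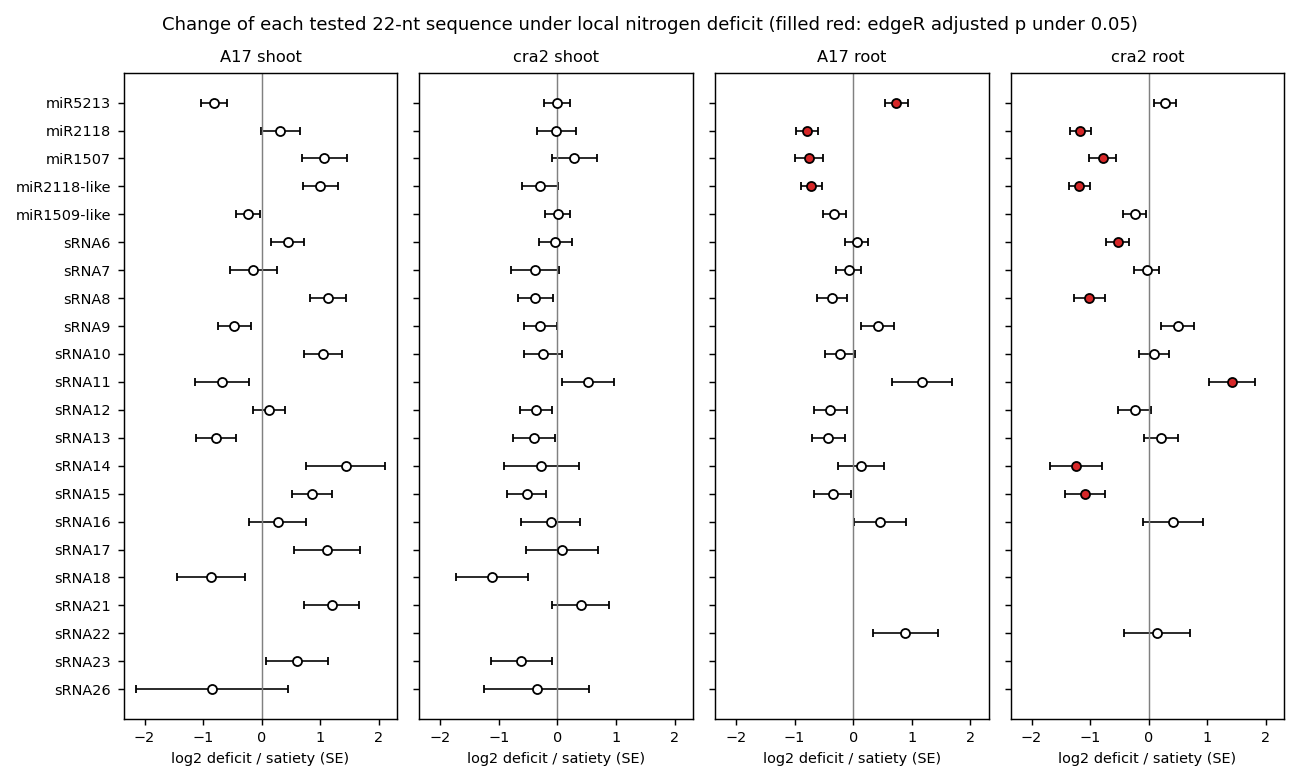
Log2 change under local deficit, with its SE, of each tested 22-nt sequence in the 4 combinations of genotype and organ; filled red points passed (edgeR adjusted p under 0.05). No point is filled in shoots, 4 are in A17 roots and 8 in cra2 roots; a missing point was too rare to test in that organ.

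A direct test of the A17 shoot response against the A17 root response called 6 of 21 sequences, 4 with a positive difference and 2 with a negative one, beside 8.5% and 18.5% of all 200 tested. The median difference was -0.06 in the set and -0.31 over all tested. miR1507 (log2 difference of responses, shoot minus root, 1.64 ± 0.50, edgeR adjusted p = 0.0202) and miR2118-like (1.55 ± 0.38, edgeR adjusted p = 0.00638) were relatively higher in shoots under deficit. So were sRNA8 (1.36 ± 0.38, edgeR adjusted p = 0.0112) and sRNA10, the sequence paired with miR2118-like (1.13 ± 0.38, edgeR adjusted p = 0.0314). miR5213 (-1.68 ± 0.31, edgeR adjusted p = 0.000712) and sRNA11 (-1.98 ± 0.71, edgeR adjusted p = 0.0406) went the opposite way. For miR2118 the difference of 0.96 ± 0.40 was not called (edgeR adjusted p = 0.0737), nor was that of miR1509-like (-0.06 ± 0.31, or 0.28 with RLE scaling, edgeR adjusted p = 0.915). With a library left out, miR5213, miR2118-like and sRNA8 passed in all 12 fits and miR1507 in 10 (lost without A17 shoot satiety replicate 1 or 2, edgeR adjusted p up to 0.0703). sRNA10 passed in 8 (lost without A17 shoot deficit replicate 2 or 3 or A17 shoot satiety replicate 1 or 2, up to 0.0962). sRNA11 passed in 4, losing the call without any A17 root deficit library, A17 root satiety replicate 1 or 3, A17 shoot deficit replicate 2 or 3 or A17 shoot satiety replicate 1 (up to 0.181). It also lost its call in 6 of 9 other settings (adjusted p up to 0.165).

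In cra2 shoots no sequence of the set was called in either direction, beside 0% and 0% of all tested, and 0 of 21 had an unadjusted p under 0.05; DESeq2 called 0, beside 0% of all. The median log2 change was -0.27 in the set and -0.046 over all tested. miR5213 stood at 8774, 7220 and 7023 CPM under satiety and at 8160, 8260 and 6469 under deficit. The libraries overlapped throughout. miR2118 held 9076 ± 2262 and 8960 ± 4028 CPM, miR1507 4543 ± 1086 and 5551 ± 3132, miR2118-like 807 ± 162 and 656 ± 200.0, and miR1509-like 1131 ± 63.1 and 1132 ± 247. The smallest p values belonged to sRNA18, sRNA15 and sRNA12, at edgeR adjusted p of 0.572, 0.662 and 0.717. Their levels under satiety and deficit were 6.39 ± 4.54 and 3.00 ± 1.84, 16.7 ± 2.45 and 11.5 ± 5.68, and 25.7 ± 3.83 and 19.9 ± 2.34 CPM. The test of the difference between the genotypes' shoot responses called 0 of the 21, beside 0% of all sequences higher and 0% lower. In that test 5 of the 21 had an unadjusted p under 0.05 and DESeq2 called 4, beside 17.8% of all. The smallest p values were those of sRNA8 (cra2 minus A17 response, -1.51 ± 0.43), miR2118-like (-1.30 ± 0.43) and sRNA15 (-1.38 ± 0.47), each at edgeR adjusted p = 0.0976.

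Between genotypes most calls fell in roots. In roots under satiety 5 of the 17 tested were higher in cra2 than in A17 (29.4%) and 0 lower, beside 8.93% and 17.3% of all tested. The median log2 difference was 0.33 in the set and 0.145 over all tested. These comparisons share libraries with those of deficit against satiety, so the values below are given side by side and not counted as further evidence. Under satiety miR2118 was higher in cra2 (7650 ± 321 CPM in A17, 12937 ± 2904 in cra2; log2 0.76 ± 0.18, edgeR adjusted p = 0.0033). So was miR2118-like (3609 ± 154 and 6013 ± 440 CPM; log2 0.74 ± 0.18, edgeR adjusted p = 0.00365). miR1507 was not called, at 14890 ± 1977 and 18030 ± 2605 CPM, nor was miR5213, at 16547 ± 2129 and 18467 ± 2049 CPM. sRNA8 was at 74.8, 61.1 and 62.2 CPM in A17 and 110, 119 and 117 in cra2 (log2 0.80 ± 0.26, edgeR adjusted p = 0.0221). It lost the call without any of the 3 A17 satiety libraries (edgeR adjusted p up to 0.104), with library totals and without a filter (up to 0.068). miR2118-like lost its call with library totals (0.0507).

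Both miR1509-like and sRNA11 were higher in cra2 roots under either supply. miR1509-like stood at 1675, 1434 and 1312 CPM in A17 and 3187, 2569 and 2125 in cra2 under satiety (log2 0.83 ± 0.20, edgeR adjusted p = 0.0032). Under deficit it stood at 1235, 891 and 1404 CPM in A17 and 2352, 2038 and 2285 in cra2 (log2 0.92 ± 0.20, edgeR adjusted p = 0.000988). No cra2 library overlapped an A17 library of the same supply. sRNA11 held 2.06, 3.25 and 1.79 CPM in A17 and 10.5, 6.15 and 9.4 in cra2 under satiety (log2 1.85 ± 0.51, edgeR adjusted p = 0.00774). Under deficit it held 5, 7.06 and 4.52 CPM in A17 and 22.0, 29.3 and 19.0 in cra2 (log2 2.09 ± 0.39, edgeR adjusted p = 0.000262). A17 libraries had only 3 to 9 counts of it, near the floor and under the filter's minimum of 10, so its fold rests on few reads. It entered the root fit only through cra2 libraries, where it was high, so the main test was not independent of the filter. Its calls held in the 8 other settings that could be run under satiety and the 9 under deficit, and without any single library. Apart from the fit without a filter, those fits were filtered on the same counts, so they do not lift this limit. sRNA11 is nonetheless counted among the called sequences of both root comparisons.

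Under deficit 4 of 17 differed in roots, 2 higher and 2 lower in cra2, beside 11.9% and 20.8% of all tested; the median log2 difference was 0.24 in the set and 0.04 over all tested. The higher sequences were miR1509-like and sRNA11, above. sRNA6 was lower in cra2, at 218, 246 and 210 CPM against 405, 456 and 427 in A17 (log2 -0.93 ± 0.20, edgeR adjusted p = 0.000792), with the groups far apart. sRNA14 was lower too, at 8.38, 10.6 and 19.0 CPM against 30.6, 29.0 and 28.4 (log2 -1.19 ± 0.43, edgeR adjusted p = 0.037). It passed in 1 of 6 fits with a library left out (edgeR adjusted p up to 0.162; lost without any A17 deficit library and without cra2 deficit replicate 1 or 2). miR2118 (4429 ± 727 CPM in A17, 5756 ± 586 in cra2; edgeR adjusted p = 0.117) was not called there.

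**Figure D3:**
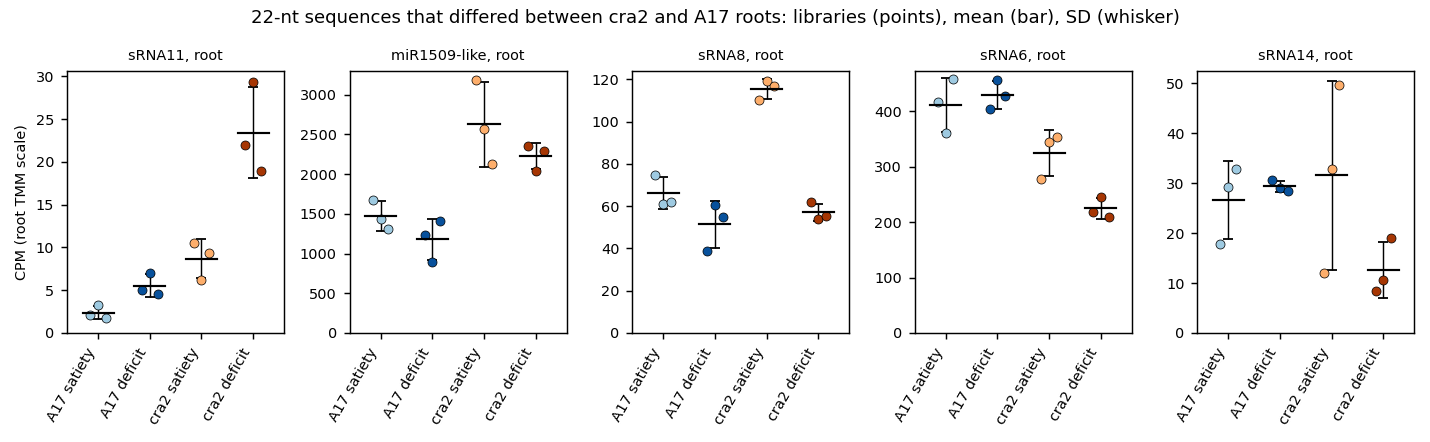
Root CPM of 5 sequences called between cra2 and A17 roots under at least 1 supply, on the root TMM scale. Points are libraries, bars the mean and whiskers the SD (n = 3); sRNA11 and miR1509-like lie higher in cra2 under both supplies, sRNA6 lies lower in cra2 under deficit.

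In shoots under satiety 0 of the 21 were called higher in cra2 and 0 lower, beside 1.06% and 5.82% of all tested; 4 had an unadjusted p under 0.05 in edgeR and DESeq2 called 2, beside 8.56% of all. sRNA8 (41.8 ± 6.51 CPM in A17, 77.1 ± 17.8 in cra2), sRNA14 (6.95 ± 3.93 and 26.3 ± 19.4) and sRNA15 (9.06 ± 1.52 and 16.7 ± 2.45) had the smallest p values, at edgeR adjusted p of 0.119, 0.13 and 0.168. The libraries of sRNA14 in cra2 ranged from 5.7 to 44.1 CPM. Under deficit sRNA11 was higher in cra2 shoots, 1 of 21, beside 7.41% of all tested called higher, and 0 were lower, beside 5.82%. It stood at 26.1, 24.5 and 17.6 CPM in A17 and 35.6, 129 and 51.4 in cra2 (log2 1.66 ± 0.46, edgeR adjusted p = 0.0342). A single cra2 library was far above the others, and without it (cra2 deficit replicate 2) or without any of the A17 deficit libraries the call was lost (edgeR adjusted p up to 0.195). The median log2 difference of the set between genotypes in shoots was 0.36 under satiety and -0.27 under deficit, against -0.021 and 0.092 over all tested.

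Shoots and roots differed in 13 of the 21 sequences tested over all 24 libraries, 5 higher and 8 lower in shoots, beside 33.5% and 34% of all 200 tested. Of the 16 that also entered both single-organ fits 3 were higher and 6 lower. The other calls, sRNA17, sRNA18, sRNA22 and sRNA24, were of sequences too rare for the fit of at least 1 organ, and only their levels are given. Levels in this comparison are on the TMM scale of all libraries and are not to be set beside the CPM above. The median log2 difference, shoot minus root, was -0.03 in the set and -0.05 over all tested. In whole organs fewer cells of a type and less RNA per cell cannot be told apart. miR2118 ran from 7151 to 18770 CPM in shoots (median 10430) and from 2739 to 12110 in roots (median 5153). The organs overlapped, and it was higher in shoots (log2 1.01 ± 0.14, edgeR adjusted p = 7.78e-07). The other triggers that differed were higher in roots. miR2118-like had a median of 995 CPM in shoots (627 to 1770) and 2506 in roots (1417 to 4557; log2 -1.36 ± 0.14, edgeR adjusted p = 3.41e-09). The medians of miR5213 were 9942 and 15010 CPM (log2 -0.64 ± 0.11, edgeR adjusted p = 1.13e-05) and those of miR1507 6018 and 10515 CPM (log2 -0.58 ± 0.18, edgeR adjusted p = 0.00523), with overlapping libraries. miR1509-like, at medians of 1354 and 1428 CPM, was not called (log2 -0.03 ± 0.11, edgeR adjusted p = 0.833).

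The scaling shifted this comparison as a whole. miR159 holds the larger share of shoot libraries, and its part in the shift was not tested. With library totals in place of TMM factors the median of all sequences moved by -0.736. miR2118 was then not called (log2 0.25, edgeR adjusted p = 0.106), sRNA8 turned from higher to near equal in shoots (log2 0.67 ± 0.13 with TMM, -0.08 with library totals), and miR1509-like was called lower in shoots (edgeR adjusted p = 5.65e-05). The other 11 calls kept their direction under library totals.

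Several unnamed sequences were found mostly in shoots or mostly in roots. sRNA17 had 258 counts over the 12 shoot libraries, with counts in each, and 0 over the 12 root libraries. Set against a floor of 3 counts summed over all root libraries it was at least 36-fold higher in shoots. Its shoot libraries held 1.56 to 22.6 CPM (median 8.29). sRNA7 was a root sequence, at 294 to 637 CPM in roots (median 413) and 14.2 to 52.6 in shoots (median 38.9), with no overlap (log2 -3.48 ± 0.17, edgeR adjusted p = 4.84e-15). sRNA22 had 112 counts in roots and 13 in shoots. Shoot libraries held more counts, so these sums stand for 7.26 and 0.352 CPM of all counts of the organ, without TMM factors. sRNA11 was higher in shoots, at a median of 47.9 CPM against 4.76 (log2 3.27 ± 0.23, edgeR adjusted p = 4.86e-12), with overlapping libraries. sRNA18 had 185 counts in shoots and 16 in roots, or 5.02 and 1.04 CPM of all counts of the organ. For sRNA24 the counts were 37 and 75, or 1.0 and 4.86 CPM. sRNA13 and sRNA10 were higher in roots, with log2 differences of -1.24 ± 0.16 (edgeR adjusted p = 2.22e-07) and -0.80 ± 0.14 (edgeR adjusted p = 1.22e-05).

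**Figure D4:**
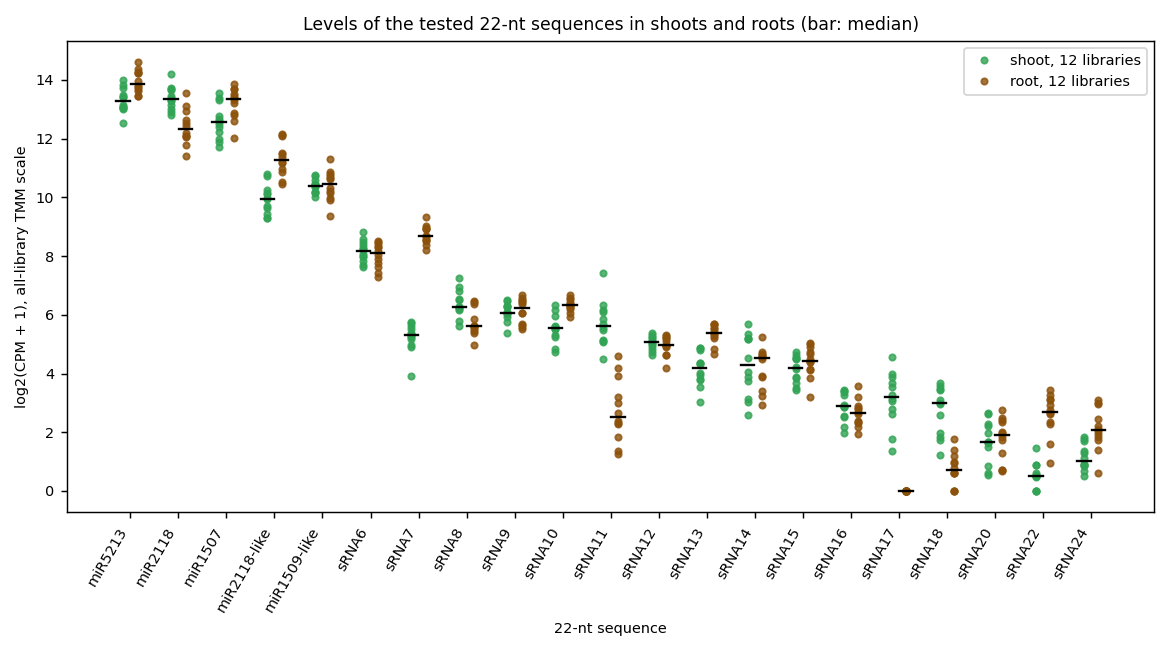
Levels, as log2(CPM + 1) on the TMM scale of all libraries, of the 21 tested sequences in 12 shoot and 12 root libraries (points), with medians as bars. sRNA7 separates the organs completely. sRNA17 had 0 counts in the root libraries, but its lowest shoot library (1.56 CPM) lies near the floor, so complete separation is not shown for it. miR2118 is higher in shoots and miR2118-like in roots.

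The proportions of sequences that could be arms of a hairpin are given as a description, with no test. sRNA9 held 0.848 ± 0.521% of the counts of itself and miR1507 in roots and 1.25 ± 0.687% in shoots (SD, n = 12 each). Its share was 2.00 ± 0.793% in A17 shoots under satiety and 0.698 ± 0.348% under deficit, and 0.478 ± 0.112% in A17 roots under satiety and 1.23 ± 0.778% under deficit (n = 3 each). In cra2 it was 1.31 ± 0.49% and 0.997 ± 0.448% in shoots and 0.496 ± 0.193% and 1.19 ± 0.238% in roots. sRNA9 itself was not called under deficit in either organ of A17 (edgeR adjusted p = 0.243 in shoots and 0.265 in roots). sRNA10 held 3.22 ± 1.17% of the pair with miR2118-like in roots and 4.56 ± 1.2% in shoots. The lowest share was in cra2 roots under satiety (1.66 ± 0.276%), where miR2118-like was most abundant. As miR2118-like is part of the total, a high level of it lowers this share by arithmetic alone. The 21-nt sequence paired with miR5213 held 0.232 ± 0.108% in roots and 0.15 ± 0.0944% in shoots. The partner of miR1509-like pairs slightly better with the 21-nt miR1509, so it may not belong to miR1509-like alone. Its share of the counts of itself and miR1509-like was 31.8 ± 6.6% in roots and 14.3 ± 1.63% in shoots; the lowest root library (18.8%) lay above the highest shoot library (17.7%).

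sRNA8 could pair with either of these 21-nt sequences, shown because the share of the first differs by organ.
first partner: gGAAAACAtgaatgtcgggtg
second partner: gAAAAACAtgaatgtcgagcg
The first partner held 56.0 ± 12.4% of the joint counts in shoots (34.3 to 73.1%) and 1.2 ± 1.35% in roots (0 to 4.62%), without overlap of the organs. In A17 shoots its share was 66.1 ± 8.28% under satiety and 41.6 ± 10.6% under deficit, and in cra2 shoots 55.6 ± 9.18% and 60.6 ± 9.53%. The second partner, which pairs slightly better with sRNA8, held 10.3 ± 3.57% in shoots and 12.8 ± 6.19% in roots, with overlapping libraries. The files do not say which hairpin either belongs to.

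Outside the 22-nt set, 6 sequences of other lengths belong to the same pathways, and 5 of them were abundant enough to test. They are the 21-nt forms of miR1510 and miR1509, miR390, which triggers phasiRNAs from TAS3, miR168, which targets the slicer AGO1, and miR162, which targets DCL1; miR393 was too rare. In A17 roots 3 of 5 were lower under deficit and 0 higher, beside 16.1% and 14.9% of all tested. They were miR168 (9198 ± 1451 to 5194 ± 802 CPM; log2 -0.82 ± 0.19, edgeR adjusted p = 0.00653), miR1509 (198 ± 62.5 to 114 ± 12.4 CPM; edgeR adjusted p = 0.0191) and miR390 (716 ± 53.4 to 470 ± 33.7 CPM; edgeR adjusted p = 0.0231). In cra2 roots miR1510 fell from 827 ± 188 to 430 ± 54.6 CPM (log2 -0.94 ± 0.20, edgeR adjusted p = 0.00194), and miR168 and miR162 fell as well (edgeR adjusted p = 0.00205 and 0.045), with 0 higher, beside 14.9% of all called lower and 13.7% higher. Between genotypes miR390 alone was called, higher in cra2 roots under satiety (edgeR adjusted p = 0.0459) and deficit (470 ± 33.7 against 1039 ± 67.1 CPM, edgeR adjusted p = 0.000157), beside 8.93% and 11.9% of all called higher. In shoots none of the 5 was called between supplies or genotypes. Between organs miR1510 and miR168 were higher in shoots and miR390, miR162 and miR1509 higher in roots, where 33.5% and 34% of all were called. The A17 responses of miR168 and miR390 differed between the organs in the same direction as that of miR2118-like, with log2 differences of 1.22 ± 0.35 and 0.83 ± 0.27 (edgeR adjusted p = 0.0136 and 0.0279), beside 8.5% of all called with a positive difference.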

How the data were processed

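Per the labels' protocols, total RNA (miRNeasy kit) was turned into libraries by a NEXTFLEX Small RNA-seq v3 kit, with size selection. The submitters' processing notes name cutadapt. Its version, the aligner, the counter and where the listed sequences came from were not given in the sources used. The authors deposited whole-number counts per sequence for each library, used here unchanged. The floor was 3 counts, which covers counting error only.

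Sequences of 22 nt were kept unless within 3 mismatches, ungapped over at least 18 nt, of 26 conserved references of 23 families, written from textbook knowledge, or of their opposite arms. The members, lists and tests were chosen with earlier results of these data known.

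Counts were tested with edgeR 4.0.16 (R 4.3.3), glmQLFit with robust estimation and glmQLFTest, TMM scaling, filterByExpr by group with a minimum count of 10, and Benjamini-Hochberg adjustment over all sequences tested, called under 0.05. Shoot and root libraries were fitted apart with 4 group means; organ comparisons used all 24 libraries. SE is the log2 change divided by the square root of the F statistic. The method was tested on simulated counts. All replicate pairs differed beyond counting error (chi-square per degree of freedom 5.28 to 461 over 24 pairs), so none was counted as a repeat.

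Named members were the trigger-matched ones, the 10 most abundant, up to 5 called per direction and comparison without overlap, and the 3 smallest p where none was called (no pattern was at hand for miR5754); sRNA14 in roots, sRNA6 and the organ calls with overlap were named because they passed. Alternatives were DESeq2 1.42.0, scaling by RLE, library totals or the upper quartile, filters of at least 1 count and of 10 CPM in 3 libraries, a replicate block, the most abundant sequence left out, the compared groups alone, a limit of 2 mismatches, and each library left out.

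Residuals of equally numbered libraries of an organ correlated over 0.1 in all 3 pairs in 1 of 12 pairs of groups, A17 root deficit and satiety (0.21, 0.133 and 0.342). Over the 12 pairs of groups the correlations ran from -0.389 to 0.367. The labels give only a replicate number, so a pairing is not shown. Main values come from the fit without a block, and the block left 4 calls in A17 roots, as without it.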

Additional observations from a re-analysis of the deposited data

Results flagged for a closer look

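The difference between the A17 shoot and root responses to deficit was past the test's threshold for 6 sequences, as log2 difference of responses, shoot minus root. It was 1.64 for miR1507, 1.55 for miR2118-like, 1.36 for sRNA8, 1.13 for sRNA10, -1.68 for miR5213 and -1.98 for sRNA11. For miR5213, miR2118-like and sRNA8 the call held without any single library. The A17 shoot response of none of the 6 passed by itself (edgeR, 0 of 21 called, 8 at an unadjusted p under 0.05; DESeq2 called 6), and the median over all 200 sequences was -0.31.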

How the results depend on the processing

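Of the 41 calls within the set, 25 passed under every other setting, 26 in every fit with a library left out, and 1 changed sign. Of 53 results followed that were not called, 16 changed sign under some setting. Scaling moved the median of all sequences by -0.736 to 0.58. A count of called sequences that moved by over 1.5 times is given here by comparison. Its range over fits with a library left out is given with it, and the cause was not tested. For most of these settings the share of all sequences called was not taken. A moved count therefore does not set these sequences apart from all those tested. For A17 shoots under deficit, 0 called became 1 with RLE, 6 with DESeq2, 1 without a filter, 2 with the 10 CPM filter, 10 with the compared groups alone and 8 without the cra2 shoot deficit libraries (0 to 2). For A17 roots, 4 became 2 with library totals and 2 with upper-quartile scaling (1 to 5). For cra2 roots, 8 became 3 with library totals, 5 with the 10 CPM filter, 4 with the most abundant sequence left out and 5 with the compared groups alone (4 to 7). For cra2 against A17 shoots under satiety, 0 became 2 with DESeq2, 1 with the compared groups alone and 2 without the cra2 shoot deficit libraries (0 to 0). Under deficit, 1 became 3 with library totals, 2 with upper-quartile scaling, 2 with DESeq2 and 0 with the compared groups alone (0 to 5). For roots under satiety, 5 became 3 with library totals (4 to 6), and under deficit 4 ranged from 3 to 6. Between organs, 13 became 20 without a filter (13 to 15), the A17 organ difference of 6 ranged from 3 to 7, and for the genotype difference in shoots 0 became 1 with library totals and 4 with DESeq2 (0 to 4). The log2 values that changed sign included sRNA8 between organs (-0.082, library totals), sRNA12 in cra2 shoots (0.123, library totals), and miR1509-like in cra2 roots (0.062, library totals; -0.312 to 0.034 with a library left out), between organs (0.001 with RLE and DESeq2, 0.031 with the most abundant sequence left out; -0.081 to 0.015 with a library left out) and in the A17 organ difference (0.28 with RLE and DESeq2, 0.406 unfiltered, 0.372 with the most abundant sequence left out, 0.429 with the compared groups alone; -0.228 to 0.463 with a library left out). The other 12 sign changes were of uncalled values between -0.35 and 0.289: miR5213, miR2118, miR1507, miR2118-like and miR1509-like in cra2 shoots, miR1507 and miR2118 between genotypes in shoots under deficit, miR1507 in roots under deficit, and miR1507, miR2118 and miR1509-like in genotype differences of response.

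With the replicate number as a block, 7 sequences were called in cra2 roots (8 without it) and 7 in the A17 organ difference (6 without it); every other count was as without the block. Outside the A17 root groups, residuals of equally numbered libraries of an organ did not correlate over 0.1 in every pair. Between organs such correlation was not examined, and the main organ tests took the libraries as independent. Sequences under about 4 CPM lie near the floor of 3 counts in the smallest libraries, so small differences among them were not detectable at this depth.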
